A study of Mus musculus with 4 samples.

Results

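The cells described here are aortic fibroblasts that carried transcripts of Cilp or Meox1 while holding few transcripts of the progenitor-like fibroblast genes Pi16 and Dact2. They were chosen by their counts of unique molecular identifiers (UMIs). A fibroblast was a cell with at least 10 UMIs of Dcn, at least 1 of Pdgfra, none of Ptprc and at most 1 of Myh11. A member had, besides, a Cilp and Meox1 sum of 3 or more, a Pi16 and Dact2 sum of 2 or less, and a Tfap2b and Mab21l2 sum of 1 or less. The rule found 81 members among 6327 fibroblasts and 14148 cells kept from the whole series, which is 1.28% of the fibroblasts (95% exact binomial interval 1.02% to 1.59%).

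Aortic arches with their branches were taken from male mice that were 3 months old at the start. The Nrf2Cdh5tKO mice carried floxed Nfe2l2, the gene of the transcription factor Nrf2, together with a constitutive Cdh5-driven Cre. This Cre acts in endothelial cells and in a proportion of haematopoietic cells, so that fibroblasts were not its target, and the Nrf2flox/flox controls carried the floxed gene alone. Atherosclerotic mice of both genotypes were kept on a high-fat diet for 21 weeks, while normocholesterolemic mice were kept on a standard diet. Tissue of 4 mice (both normocholesterolemic groups) or 3 mice (both atherosclerotic groups) was pooled into 1 library per group. There is thus no replicate of any group, no test between conditions was made, and every interval below covers counting error only.

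Values are given throughout in the order normocholesterolemic Nrf2flox/flox, normocholesterolemic Nrf2Cdh5tKO, atherosclerotic Nrf2flox/flox and atherosclerotic Nrf2Cdh5tKO. The kept cells numbered 7890, 2972, 1020 and 2266, and the fibroblasts 3568, 1396, 408 and 955. Members had a median of 13260, 18197, 11697 and 8134 UMIs per cell, beside 12572, 16873, 14360.5 and 11618 in the other fibroblasts. A single UMI in the summed members stood for 1.17, 15.8, 20.2 and 17.8 counts per 1000000 UMIs (CPM), so that levels in the last 3 libraries moved in coarse steps. Nfe2l2 in the members was 193, 300.4, 182 and 125 CPM, and no member had a UMI of Cdh5, so these cells give no check of the genotype label.

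Fibroblasts of the outer arterial wall build and maintain the collagen, elastin and proteoglycan matrix and signal to the immune and muscle cells beside them. Cilp encodes a secreted matrix protein known from cartilage that binds TGF-beta, and Meox1 a homeobox transcription factor linked to fibroblast activation. Pi16 marks adventitial fibroblasts with progenitor features in many tissues. Col8a1, a short-chain network-forming collagen, and Hmcn2, a large extracellular hemicentin, were named with Cilp and Meox1 as markers of the same cells. On the mouse assembly mm10, the protein-coding genes lie at chr9:65265180-65280605 on the plus strand (Cilp), chr11:101877510-101894374 on the minus strand (Meox1), chr16:57624258-57754737 on the minus strand (Col8a1) and chr2:31314415-31460738 on the plus strand (Hmcn2), by the GENCODE M21 annotation.

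The members were very unevenly spread over the libraries. The normocholesterolemic Nrf2flox/flox library held 65 of them, the other libraries 5, 4 and 7. As a share of the fibroblasts of each library this was 1.82% (1.41% to 2.32%), 0.358% (0.116% to 0.834%), 0.980% (0.268% to 2.49%) and 0.733% (0.295% to 1.5%). The share in the normocholesterolemic Nrf2flox/flox library thus lay above that in the normocholesterolemic Nrf2Cdh5tKO library beyond counting error, and its interval overlapped those of both atherosclerotic libraries. No difference can be given to genotype or diet, because library and condition cannot be told apart.

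The normocholesterolemic Nrf2Cdh5tKO library changed place, from lowest to highest, when the limits on Pi16, Dact2, Tfap2b and Mab21l2 were not applied, while the other libraries kept their order. Fibroblasts with 3 or more Cilp and Meox1 UMIs numbered 299, 368, 22 and 46, which was 8.38%, 26.4%, 5.39% and 4.82% of the fibroblasts. Of these, 229, 363, 18 and 39 were over the limit on Pi16 and Dact2, and 5 more in the normocholesterolemic Nrf2flox/flox library were over that on Tfap2b and Mab21l2 only. The members were therefore 21.7%, 1.36%, 18.2% and 15.2% of the Cilp and Meox1 fibroblasts. The library with the highest share of Cilp and Meox1 fibroblasts had the lowest share of members, since nearly all of its Cilp and Meox1 fibroblasts also carried Pi16 or Dact2.

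**Figure D1:**
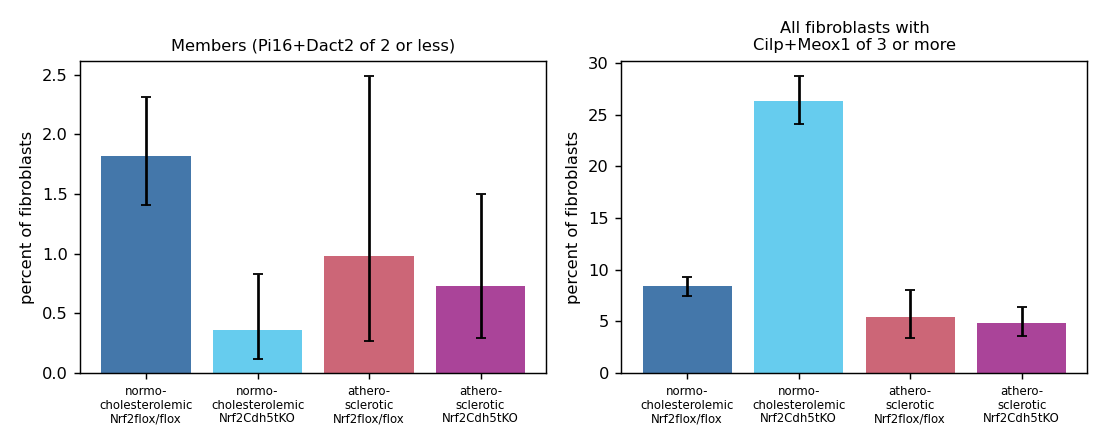
Percent of the fibroblasts of each library that were members (left) and that had a Cilp and Meox1 sum of 3 or more without the other limits (right), with exact binomial 95% intervals as error bars. Members reach 1.82% in the normocholesterolemic Nrf2flox/flox library and 0.358% in the normocholesterolemic Nrf2Cdh5tKO library, while the wider group stands at 8.38% and 26.4% there.

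These limits count UMIs and therefore depend on the depth of a cell. With each fibroblast thinned to 5000 UMIs and the rule applied again, the members numbered 51, 22, 4 and 3, or 1.60%, 1.64%, 1.07% and 0.370% of the fibroblasts deep enough. The 382, 56, 35 and 145 fibroblasts under that depth were left out. Both normocholesterolemic libraries then had nearly equal shares, but only 2 of the 22 thinned members of the Nrf2Cdh5tKO library had been members at full depth, against 44 of 51 in the Nrf2flox/flox library. The excess of members in the normocholesterolemic Nrf2flox/flox library over its Nrf2Cdh5tKO counterpart was thus not kept at equal depth. The thinned share of all Cilp and Meox1 fibroblasts kept its order, at 5.34%, 15.1%, 3.75% and 2.47%.

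Of the members, 13 sat exactly at a Cilp and Meox1 sum of 3, and 28 fibroblasts under the other limits sat just outside it at 2. At the limit on Pi16 and Dact2, 22 members had a sum of 2, and 8 Cilp and Meox1 fibroblasts sat just outside at 3. The Cilp and Meox1 sum had a median of 9, 3, 5.5 and 5 UMIs and a highest value of 46, 8, 12 and 10.

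Few members held both genes that name them. Of all 81, 52 had Meox1 and no Cilp, 12 had Cilp and no Meox1, and 17 had both. In the normocholesterolemic Nrf2flox/flox library these were 46, 7 and 12 of 65. The other libraries had 2 Meox1-only, 1 Cilp-only and 2 double cells (normocholesterolemic Nrf2Cdh5tKO), 1, 2 and 1 (atherosclerotic Nrf2flox/flox) and 3, 2 and 2 (atherosclerotic Nrf2Cdh5tKO). The members of the first library were therefore mostly Meox1 cells, with 711 UMIs of Meox1 and 161 of Cilp in sum.

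Among all fibroblasts the genes did occur together more often than the product of their shares. Cilp was found in 10.5%, 18.1%, 7.35% and 6.91% of fibroblasts and Meox1 in 10.4%, 31.4%, 3.68% and 5.65%. Both were found in 3.08%, 11.2%, 1.23% and 1.57%, where the products of the shares are 1.10%, 5.70%, 0.270% and 0.391%, all at full depth. In leukocytes (cells with at least 2 UMIs of Ptprc, median depth 9558, 8149, 7674.5 and 8283 UMIs) a Meox1 UMI was found in 0.467%, 1%, 0.287% and 0% of cells and a Cilp UMI in 1.56%, 1.5%, 0.575% and 0.299%.

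**Figure D2:**
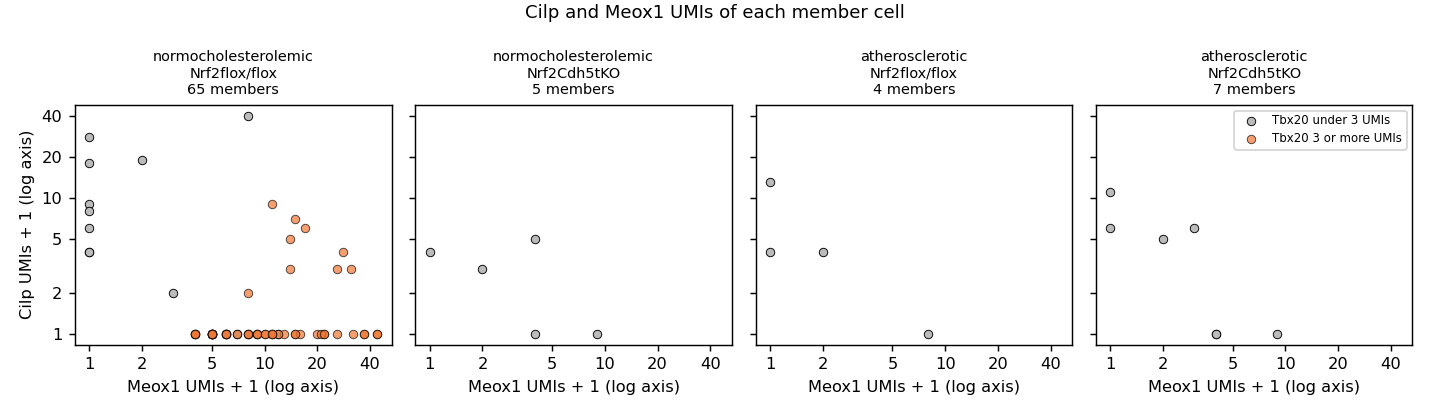
Meox1 UMIs (horizontal) and Cilp UMIs (vertical) of each of the 81 members, both on log axes after adding 1, by library, with cells of 3 or more Tbx20 UMIs in orange. All 42 orange cells belong to the normocholesterolemic Nrf2flox/flox library and carry Meox1, and 9 of them carry Cilp.

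The label was borne out only in part. In the members Col8a1 was 21.1, 569, 121 and 35.7 CPM (18, 36, 6 and 2 UMIs), beside 22, 205, 20.9 and 39.8 CPM in the other fibroblasts. It was thus clearly higher in the normocholesterolemic Nrf2Cdh5tKO library. It was also higher in the atherosclerotic Nrf2flox/flox library, but 5 of the 6 UMIs there lay in 1 cell. In the library that held most members it was no higher, and 56 of 65 members had no UMI of it. Hmcn2 was 9.38, 221, 20.2 and 53.5 CPM (8, 14, 1 and 3 UMIs), beside 19.3, 68.3, 17.3 and 17.4 CPM. The log2 ratio of members over other fibroblasts in the normocholesterolemic Nrf2flox/flox library was -0.06 (-0.82 to 0.61) for Col8a1 and -1.04 (-2.26 to -0.05) for Hmcn2. The Hmcn2 ratio turned to 0.31 after thinning to 5000 UMIs, with the rule applied again, and to 0.77 against fibroblasts under the same limits, and that of Col8a1 to 1.31 and 1.75.

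Both markers were also counted in the Cilp and Meox1 fibroblasts that the limits remove. Cilp and Meox1 fibroblasts over a limit had 145, 619, 236 and 290.4 CPM of Col8a1 and 74.8, 174, 179 and 107 CPM of Hmcn2. In the normocholesterolemic Nrf2flox/flox library, Col8a1 of fibroblasts over a limit climbed from 11.3 CPM in cells with neither gene to 82.5 at a sum of 3 to 4 and 218 at 10 or more. Under both limits it was 4.5 CPM in cells with neither gene, 16.8 at a sum of 3 to 4 and 21 at 10 or more. The normocholesterolemic Nrf2Cdh5tKO library differed from this: under both limits Col8a1 was 26.6 CPM in cells with neither gene, 126 at a sum of 1 to 2, 612 at 3 to 4 (3 cells) and 539 at 5 to 9 (2 cells), beside 27.1, 151, 278 and 424 CPM over a limit. Set against the remaining fibroblasts under the same limits (6.16, 42.2, 16.1 and 13.3 CPM), Col8a1 of the members was higher in every library, with log2 ratios of 1.75, 3.73, 2.74 and 1.39, the last with an interval from -1.71 to 3.45.

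Genes of the matrix went both ways in the library with most members, set against fibroblasts under the same limits. A gene was counted where its whole counting interval lay past 2-fold, which 1.98% of 4401 genes did upwards and 1.84% downwards. None of the 6 fibrillar collagen genes tested was higher, and Col1a2 and Col3a1 were lower (1487 against 3772 CPM and 1002 against 2421 CPM). Of 12 other collagen genes Col12a1, a collagen that lies along fibrils, was higher (68.0 against 9.34 CPM, in 19 cells) and none was lower. Of 20 genes of collagen processing the crosslinking enzyme Loxl2 was higher (145 against 44.3 CPM), and Lox and Pcolce2 were lower (32.8 against 115 CPM and 241 against 584 CPM). The hyaluronan-binding proteoglycan Vcan (466 against 203 CPM) and the leucine-rich proteoglycan Prelp (961 against 367 CPM) were higher, and Ogn was lower (664 against 1473 CPM). Because most members lacked Cilp and Col8a1, the cells are called below by their rule and their leading genes.

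**Figure D3:**
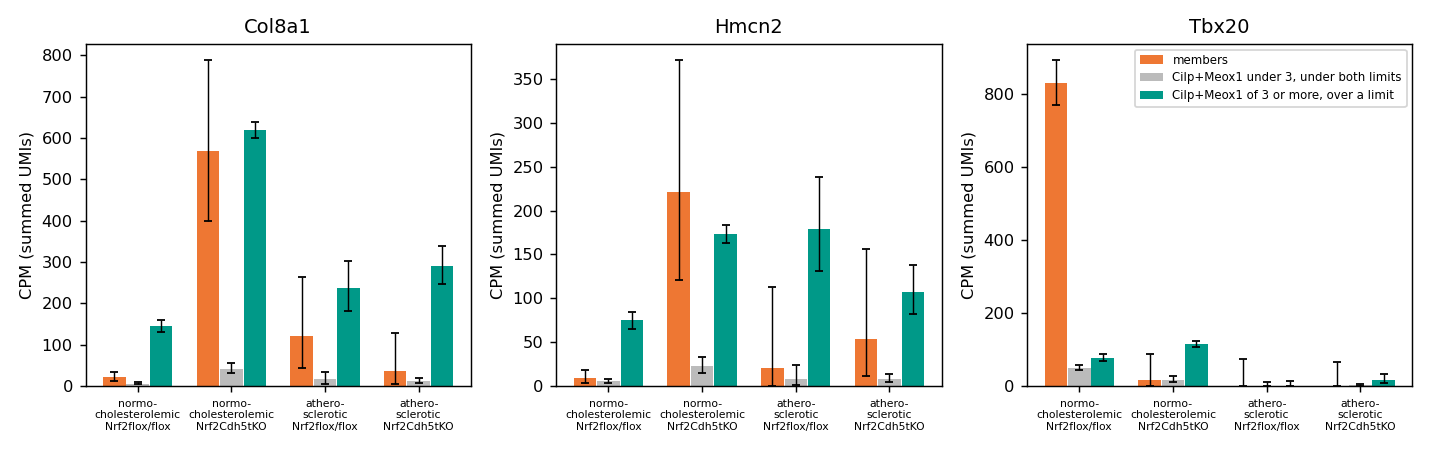
Level (CPM of summed UMIs, exact Poisson 95% intervals) of Col8a1, Hmcn2 and Tbx20 in each library, in members (orange), in the remaining fibroblasts under the same limits (grey) and in Cilp and Meox1 fibroblasts over a limit (green). Col8a1 and Hmcn2 are higher in the green than in the orange bars of the normocholesterolemic Nrf2flox/flox library (145 and 21.1 CPM for Col8a1), and Tbx20 is high in the members of that library alone (829 CPM).

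Few genes set the members apart from the other fibroblasts in all libraries. At a mean level of at least 10 CPM, 8166 genes were compared, and 21 were at least 2-fold higher in members in each of the 4 libraries (0.257%) and 68 at least 2-fold lower (0.833%). This is the contrast the rule itself drew, so these are descriptions without a test. Most of them rested on very few UMIs. Of the 21 higher genes 16 had 3 or fewer UMIs in the members of some library, and of the 68 lower genes 48 had none. The counts also moved with the setting. With each library left out in turn, 37 to 92 genes were higher and 95 to 142 lower. Asking for 2-fold in fewer libraries is a looser rule, so that rise was largely fixed in advance. After thinning to 5000 UMIs, 11 were higher and 103 lower.

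The 4 higher genes with at least 10 UMIs in the members of every library were Tmem176b, Tmem176a, Sparcl1 and Apod. Tmem176b, a membrane channel-like protein known from immune cells, was at 367, 379, 627 and 517 CPM, beside 89.9, 40.6, 89.7 and 108 CPM in the other fibroblasts, and was found in 56 of the 65 members of the first library. Its neighbour Tmem176a was at 218, 269, 445 and 268 CPM beside 56.0, 22.7, 37.4 and 61.6 CPM. Both are expressed by macrophages too, and the 11 macrophage markers together gave 192, 221, 323 and 499 CPM in members and 252, 236, 227 and 437 CPM in the other fibroblasts. Their part in the Tmem176 levels was not tested.

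Sparcl1, a matricellular relative of osteonectin, was at 240.2, 1075, 505 and 2248 CPM beside 81.8, 400.2, 37.2 and 53.2 CPM. It was found in 27 of 65, 3 of 5, 4 of 4 and 4 of 7 members. Apod, a lipid-binding lipocalin, was at 848, 696, 910 and 428 CPM beside 103, 60.8, 171 and 147 CPM, but in the first library 639 of its 724 UMIs lay in a single cell and only 13 of 65 cells had any. None of these 4 genes was among those at least 2-fold higher in every library against fibroblasts under the same limits. In those cells Tmem176b was at 262, 200.4, 378 and 189 CPM, Tmem176a at 177, 109, 166 and 128 CPM, Sparcl1 at 212, 394, 274 and 76.0 CPM and Apod at 380.5, 131, 579 and 136 CPM. Cilp and Meox1 fibroblasts over a limit had Sparcl1 at 258, 1020, 107 and 305 CPM, so in the normocholesterolemic libraries its level in members lay close to theirs.

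Among the lower genes, Dpp4, a surface peptidase that marks the same adventitial progenitor-like fibroblasts as Pi16, had no UMI in any member, beside 56.6, 59.4, 105 and 77.3 CPM in the other fibroblasts. Of the 17 progenitor-like fibroblast genes tested, 7 were lower in every library (Anxa3, Cd248, Cd55, Dpp4, Efhd1, Procr and Sema3c) and none was higher, with a median log2 ratio of -2.48 beside -0.07 over all genes. The limit on Pi16 chose the members against this group.

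Against the remaining fibroblasts under the same limits, which share the low Pi16, 9 of 8151 genes were at least 2-fold higher in members of every library (0.11%) and 26 lower (0.319%). Of these, 1 in each direction had at least 10 UMIs in the members of all libraries; both were chosen after their values were seen. Itih5, which encodes a heavy chain that binds hyaluronan, was at 269.5, 411, 303 and 535 CPM (230, 26, 15 and 30 UMIs) beside 68.0, 134, 99.3 and 62.1 CPM. It was found in 46 of 65, 3 of 5, 2 of 4 and 4 of 7 members. Gas6, the ligand of the TAM receptor kinases, was at 319.9, 253, 566 and 410.3 CPM (273, 16, 28 and 23 UMIs) beside 1045, 1011, 1344 and 1306 CPM. The Wnt-binding Sfrp2 was lower too, at 236, 221, 243 and 89.2 CPM beside 1530, 1096, 2787 and 2921 CPM, although the last library had only 5 UMIs of it.

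The normocholesterolemic Nrf2flox/flox library held enough members to be described on its own, here against its 570 remaining fibroblasts under the same limits (median depth 10212.5 UMIs). Of 4401 genes at a mean of at least 30 CPM, 87 were higher in members with the whole counting interval past 2-fold (1.98%) and 81 were lower (1.84%). The intervals measure reads, not mice, and cells that share a library are not replicates.

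The transcription factor genes Tbx20, Gata4 and Hand2 were among the higher genes. Tbx20, a T-box factor at chr9:24718138-24774303 on the minus strand, was at 829 CPM in the members beside 50.6 CPM (log2 ratio 4.03, 3.83 to 4.24) and was found in 45 of 65 cells. Gata4, a zinc finger factor, was at 84.4 CPM beside 10.7 (2.97, 2.47 to 3.51) in 35 cells. Hand2, a basic helix-loop-helix factor, was at 152 CPM beside 48.4 (1.65, 1.34 to 1.96) in 38 cells. They were the 3 higher genes of 26 mesenchymal transcription factors tested, while Tcf21 and Osr1 were lower (35.2 beside 134 CPM and 39.9 beside 145 CPM).

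Secreted regulators of the Wnt pathway went both ways. Wif1, which binds Wnt ligands, was at 777 CPM beside 114 (2.77, 2.61 to 2.93), and Dkk3, a secreted dickkopf relative, at 1261 CPM beside 242 (2.38, 2.26 to 2.50). Frzb, a secreted frizzled-type antagonist, and Rspo3, an enhancer of Wnt signalling, were also higher (83.2 beside 17 CPM and 176 beside 57.0 CPM). Sfrp2 and Sfrp4 were lower, so that 4 of 12 Wnt genes were higher and 2 lower.

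Among matricellular genes, Postn and Thbs1 were higher. Postn (periostin) was at 1301 CPM beside 184 (2.82, 2.70 to 2.95) in 43 of 65 cells, and Thbs1 (thrombospondin 1) at 1031 CPM beside 116 (3.15, 3.0 to 3.3) in 52 cells. Comp was higher as well, but in only 20 cells, and Fn1, Smoc1, Sparc and Wisp2 were lower, which makes 3 of 25 higher and 4 lower. Prg4 (lubricin) was at 836 CPM beside 79.2, the extracellular chaperone Clu at 829 beside 148 and Pdlim3, an actin-associated LIM protein, at 704 beside 49.5. Of 27 TGF-beta pathway genes tested 2 were higher (Smad7 and Inhba), of 13 BMP pathway genes 1 (Smad6), and none was lower. The feedback inhibitors Smad7 and Smad6 were at 231 beside 82.2 CPM and 87.9 beside 14.9 CPM, and Inhba, an activin subunit, at 75.0 beside 23.5 CPM.

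Complement genes were mostly lower. Of 9 tested, 7 were lower and none was higher, with a median log2 ratio of -1.37 beside 0.04 over all genes. C3, the central component, was at 500.4 CPM beside 1600, C4b at 157 beside 605 and the inhibitor Serping1 at 820.4 beside 2117. The general fibroblast gene Clec3b was at 455 CPM beside 1928 (-2.08, -2.23 to -1.94), and 4 of 15 fibroblast identity genes were lower and none higher. The metallothioneins Mt1 and Mt2 were at 2405 beside 6484 CPM and 484 beside 1218 CPM, Igfbp6 at 108 beside 531, and of 17 chemokine and cytokine genes tested 3 were lower (Ccl2, Cxcl12 and Cxcl13) and none was higher.

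A few of the highest ratios came from single cells. Npy, at 148 CPM beside 1.12, had 126 UMIs in 2 cells, and Tnnt2, at 136 CPM beside 4.67, had 77 of its 116 UMIs in 1 cell. Ostn, at 58.6 CPM beside 1.87, was found in 15 cells.

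In the members of the other 3 libraries few or no UMIs of Tbx20, Wif1 and Gata4 were counted. Tbx20 had 1, 0 and 0 UMIs in them, and Wif1 and Gata4 had none. By a 1-sided 95% limit a count of 0 still allows up to 3 UMIs, which is 47.4, 60.6 and 53.5 CPM. The intervals of the other levels are 2-sided and would reach higher for a count of 0. The single Tbx20 UMI was 15.8 CPM with an interval up to 88.1, beside 829 CPM in the first library. Gata4 was at 84.4 CPM and Wif1 at 777 CPM in the first library, both above these limits. The limits cover the counting of UMIs only. In the first library each of these genes was found in only part of the members, so a few cells can miss such members altogether. Postn was at 190, 162 and 53.5 CPM beside 149, 56.3 and 126 CPM in fibroblasts under the same limits. Thbs1 was at 474 beside 54.8 CPM and 143 beside 2.41 CPM in the Nrf2Cdh5tKO libraries, where it lay in 2 cells each and, in the normocholesterolemic one, 29 of 30 UMIs were in 1 cell. In the atherosclerotic Nrf2flox/flox library it was at 20.2 beside 113 CPM, from 1 UMI. Clu was counted too, with 19 UMIs in 1 atherosclerotic Nrf2Cdh5tKO member and 6 in 1 atherosclerotic Nrf2flox/flox member. Complement was not uniformly low either: Serping1 was at 2197, 2628 and 1516 CPM beside 2248, 2527 and 2574 CPM.

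**Figure D4:**
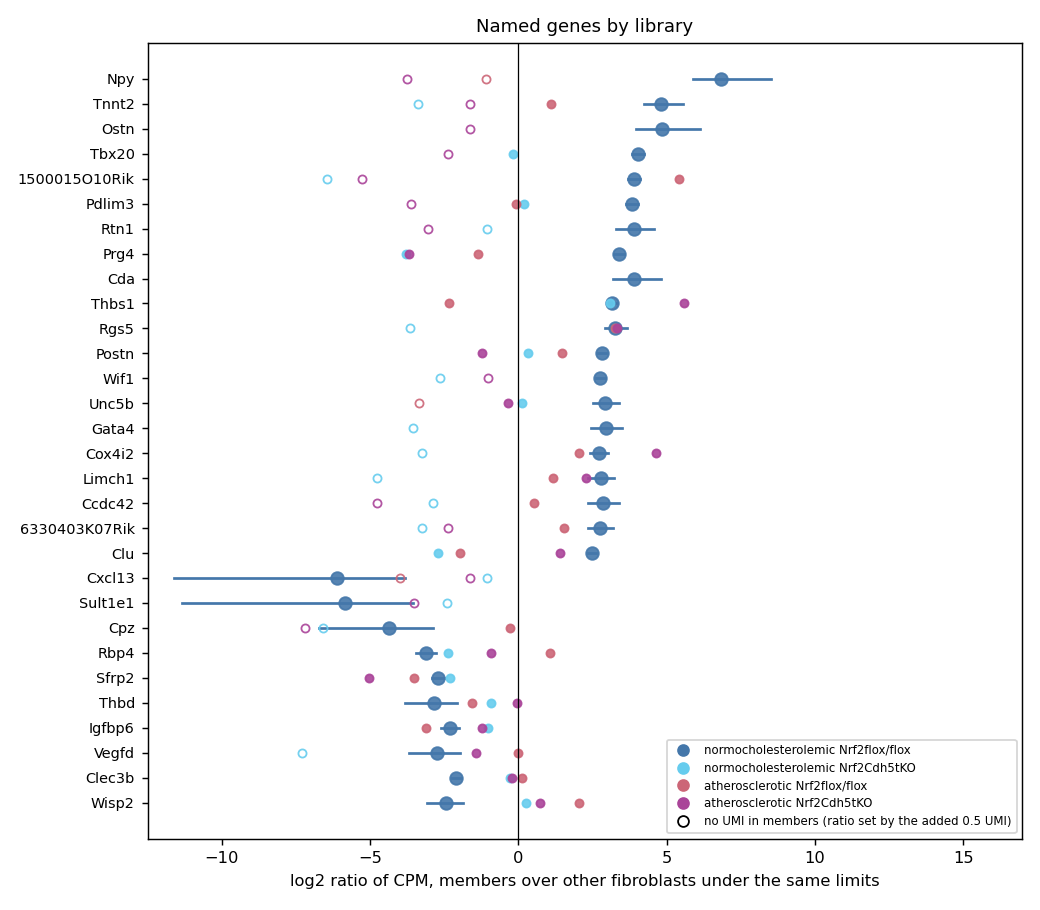
Log2 ratio of CPM in members over the remaining fibroblasts under the same limits for the genes named from the normocholesterolemic Nrf2flox/flox library (large points with 95% counting intervals), with the ratios of the other libraries as small points and open points where members had no UMI. Tbx20 lies at 4.03 in the first library and at -0.18, from 1 UMI, in the normocholesterolemic Nrf2Cdh5tKO library, while Sfrp2 lies below 0 in all 4 libraries.

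The 65 members of the normocholesterolemic Nrf2flox/flox library were not of a single kind. A division at 3 Tbx20 UMIs, chosen after the values were seen and given without a test, left 42 cells with 3 or more and 23 with fewer, of which 3 had 1 or 2. All 42 carried Meox1 (median 11.5 UMIs, 3 to 43) and 9 carried Cilp. Tbx20 itself ran from 3 to 54 UMIs per cell with a median of 15, and Thbs1 was found in 42, Pdlim3 and Dkk3 in 41, Postn in 39, Wif1 in 36 and Gata4 and Hand2 in 34 of the 42 cells. These cells had Postn at 1855 CPM beside 93.1 in the other 23 members and Wif1 at 1086 beside 104. Not every gene higher in the members lay in them, since Apod had 4 UMIs in the Tbx20 cells and 720 in the other 23.

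The other 23 members differed from the Tbx20 cells in further genes, which are named here after their values were seen. Dcn was at 26049 CPM in them and 26487 in the Tbx20 cells, and Mgp at 11944 and 11209, whereas Vim was at 4996 and 15351 and Ccdc80 at 637 and 2792. Clec3b was at 1334 CPM in them and 51.3 in the Tbx20 cells, C3 at 1434 and 71.8, the glutathione peroxidase Gpx3 at 1710 and 85.5, the eosinophil chemokine Ccl11 at 1498 and 61.6 (in 9 of the 23 cells), and Smoc2 at 913 and 22.2. The 13 of them with Meox1 and no Cilp had most of the Ccl11 (2549 CPM, 8 cells) and Sparcl1 (966 CPM, 10 cells). The 10 with Cilp had elastin (Eln, 1278 CPM, 8 cells, with 68 and 45 of the 142 UMIs in 2 of them) and the complement component C7 (702 CPM, all 10 cells), and Cilp itself at 1152 CPM. With the Tbx20 cells left out, 24 genes were higher and 10 lower than in fibroblasts under the same limits, beside 87 and 81 with them. Fewer cells give wider intervals, so these counts fall whichever cells are left out. No removal of as many other cells was made, so the fall does not measure the part of the Tbx20 cells.

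**Figure D5:**
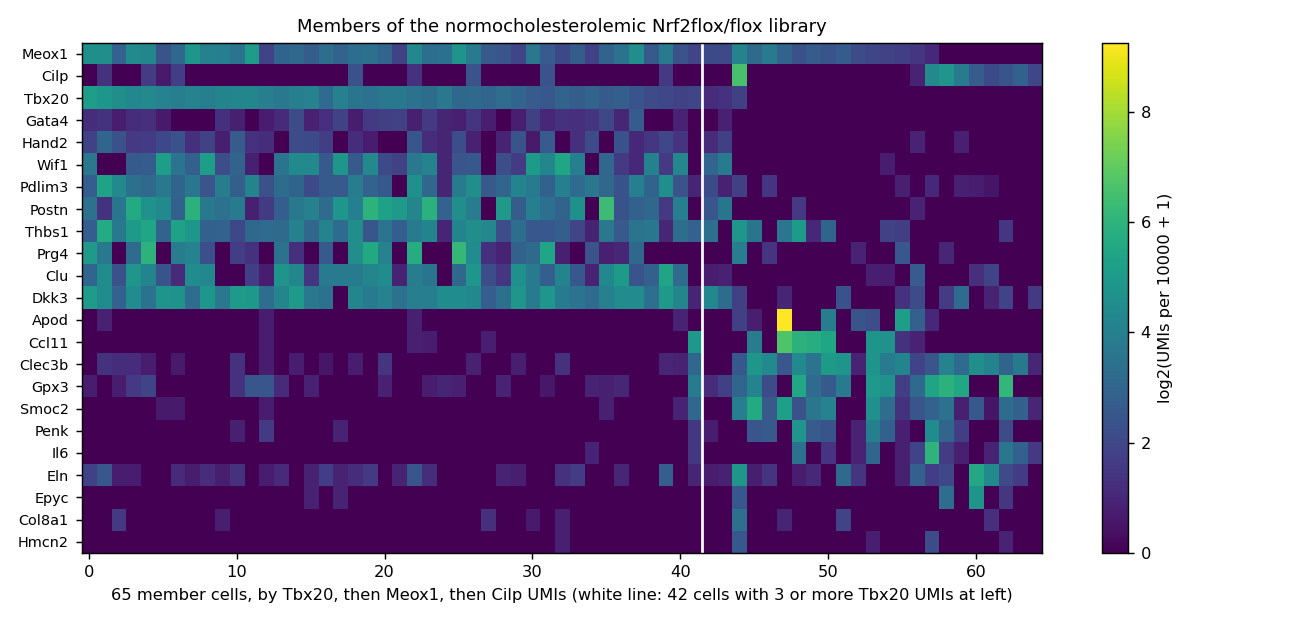
UMIs per 10000 (log2 after adding 1, colour) of named genes (rows) in each of the 65 members of the normocholesterolemic Nrf2flox/flox library (columns), ordered by Tbx20, Meox1 and Cilp. The 42 cells left of the white line have 3 or more Tbx20 UMIs, and Wif1 was found in 36, Postn in 39 and Dkk3 in 41 of them, beside 3, 4 and 12 of the 23 cells to its right. Clec3b was found in 17 of the 42 and 21 of the 23, Gpx3 in 19 and 17, and Ccl11 in 5 and 9.

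The members with Tbx20 also lay near each other by their most variable genes. In each library, the 20 nearest neighbours of a fibroblast were found from its 30 leading principal components, calculated from the 2000 most variable genes. The genes of the rule were left out of this calculation, but Tbx20, which divides the members, was not removed. Members were 43.9% of the neighbours of members in the normocholesterolemic Nrf2flox/flox library, beside their share of 1.82%. For the Tbx20 cells it was 64.2%, and 41 of 42 had another member next to them, while for the other 23 members it was 6.96%. In the other libraries members were 0%, 2.5% and 2.14% of the neighbours of members, with 5, 4 and 7 members to be found, and none of the 5 in the normocholesterolemic Nrf2Cdh5tKO library had another among its neighbours.

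Tbx20 transcripts were not particular to the members. In the normocholesterolemic Nrf2flox/flox library 201 kept cells had 3 or more Tbx20 UMIs, of which 109 were fibroblasts and 42 members. In the normocholesterolemic Nrf2Cdh5tKO library there were 163, of which 141 were fibroblasts, 111 were Cilp and Meox1 fibroblasts over the limit on Pi16 and Dact2, and none was a member. The atherosclerotic libraries had 0 and 4 such cells, of which 0 and 1 were fibroblasts. Only 3, 0, 0 and 0 leukocytes reached 3 UMIs. Of the 109 Tbx20 fibroblasts of the first library, 79.8% had Meox1, 23.9% had Cilp and 78.9% had Pi16, beside 8.2%, 10.1% and 93.9% of the remaining fibroblasts.

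Tbx20 and Wif1 climbed with the Cilp and Meox1 sum under both limits in the normocholesterolemic Nrf2flox/flox library. Tbx20 was at 27.9 CPM in fibroblasts with neither gene, 387 at a sum of 3 to 4, 502 at 5 to 9 and 1202 at 10 or more, with 502, 15, 19 and 31 cells. Wif1 was at 94.3, 448, 842 and 877 CPM in the same cells. Over a limit, Tbx20 was at 4.5, 80.2, 77.3 and 76.9 CPM and Wif1 at 3.4, 167, 74.2 and 4.5 CPM. At an equal depth of 5000 UMIs, 66.7% of the 63 members deep enough had a Tbx20 UMI and 57.1% a Wif1 UMI, beside 9.38% and 5.68% of the 405 remaining fibroblasts under the same limits that were deep enough, where at full depth 69.2% and 60% of the 65 members had one. In leukocytes of this library the shares at full depth were 1.01% and 2.26%.

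The few members of the other libraries were mixed. Of the 5 in the normocholesterolemic Nrf2Cdh5tKO library, 3 had 18859, 18258 and 18197 UMIs and the others 4524 and 3420. Col8a1 was at 8, 12, 11, 5 and 0 UMIs in them and Hmcn2 at 7, 7, 0, 0 and 0. The 4 members of the atherosclerotic Nrf2flox/flox library had 5, 0, 0 and 1 UMIs of Col8a1, and 69 of their 72 UMIs of Eln lay in 1 cell. The 7 members of the atherosclerotic Nrf2Cdh5tKO library ran from 1878 to 14413 UMIs, and Sparcl1 lay at 48, 0, 67, 5, 6, 0 and 0 UMIs in them.

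Markers of other cell types were counted in the members as well. The 10 smooth muscle markers summed to 1272, 269, 1638 and 981 CPM, beside 657, 661, 665 and 760 CPM in fibroblasts under the same limits; Tagln led at 738 CPM in the first library and Acta2 at 126, 809 and 428 CPM in the others, with 0, 5, 4 and 5 markers at 0. The 10 endothelial markers gave 27.0, 0, 101 and 89.2 CPM with 7, 10, 9 and 9 of them at 0, and the 7 pericyte markers 321, 158, 445 and 517 CPM, led by Rgs5 (189 CPM) in the first library and Abcc9 in the others. The 7 Schwann cell markers gave 66.8, 0, 0 and 161 CPM, the 10 mesothelial markers 4.69, 0, 0 and 0 CPM and the 10 atrial cardiomyocyte markers 143, 15.8, 40.4 and 0 CPM, of which Tnnt2 made up 136 CPM in the first library. Within the first library, Rgs5 was found in 29 of the 42 Tbx20 cells, in 0 of the other 13 without Cilp and in 1 of the 10 with Cilp. Tagln was at 916, 146 and 639 CPM in these cells, with 60 of the 71 UMIs of the last in 1 cell. Pdgfra, a gene of the rule, was at 147, 464 and 576 CPM in the same order. The part of muscle transcripts in the Tagln and Rgs5 levels was not tested.

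Between diets and genotypes the members gave 4 comparisons of pooled libraries, each resting on 4 to 7 cells on at least 1 side. The normocholesterolemic Nrf2flox/flox members included 42 cells with 3 or more Tbx20 UMIs, which the members of the other libraries lacked, so in comparisons with that library the make-up of the members and the condition cannot be told apart. Of 3204 genes at a mean of at least 50 CPM in members, 323 were at least 2-fold higher in the atherosclerotic than in the normocholesterolemic Nrf2flox/flox library (10.1%) and 187 lower (5.84%), with intervals that left out equality. In the Nrf2Cdh5tKO libraries 220 were higher (6.87%) and 159 lower (4.96%). In both pairs 49 genes were higher and 31 lower, and 23 went in opposite directions. Mmp3, a stromelysin, was at 316 and 3457 CPM in the normocholesterolemic and atherosclerotic Nrf2flox/flox members and at 0 and 731 CPM in the Nrf2Cdh5tKO members. It was higher in the other fibroblasts of the atherosclerotic libraries as well (534 and 1526 CPM, 354 and 1551 CPM). The neurotrophin gene Ntf3 was at 15.2 and 283 CPM and at 0 and 196 CPM in members, beside 49.6 and 55.2 CPM and 39.6 and 75.9 CPM in the other fibroblasts.

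Ptx3, a pentraxin of innate immunity, was at 391 and 0 CPM and at 206 and 0 CPM in members, beside 389 and 190.2 CPM and 347 and 195 CPM in the other fibroblasts. The interferon-induced chemokine Cxcl10 was at 154 and 0 CPM and at 4837 and 35.7 CPM, where all 306 UMIs of the normocholesterolemic Nrf2Cdh5tKO members lay in 1 cell.

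Between genotypes, 383 genes were higher in the Nrf2Cdh5tKO than in the Nrf2flox/flox members of the normocholesterolemic libraries (12%) and 159 lower (4.96%), and 174 were higher (5.43%) and 121 lower (3.78%) in the atherosclerotic ones. In both pairs 43 were higher and 17 lower, and 26 went in opposite directions. The cytokine Il6 was at 138 and 632 CPM in normocholesterolemic and at 0 and 303 CPM in atherosclerotic members, in 15 of 65, 3 of 5, 0 of 4 and 5 of 7 cells in the order of the libraries. In the normocholesterolemic libraries 59 of the 118 Il6 UMIs of Nrf2flox/flox and 34 of the 40 of Nrf2Cdh5tKO members lay in 1 cell. In the other fibroblasts it was at 228 and 318 CPM and at 123 and 212 CPM. Within the normocholesterolemic Nrf2flox/flox members Il6 was at 5.13 CPM in the 42 Tbx20 cells and 428 CPM in the other 23. Ccl2, a monocyte chemokine, was at 97.3 and 2545 CPM and at 20.2 and 232 CPM in members, where 160 of the 161 UMIs of the normocholesterolemic Nrf2Cdh5tKO members lay in 1 cell. Fmod, a collagen-binding proteoglycan, was at 178 and 0 CPM and at 809 and 53.5 CPM, and within the normocholesterolemic Nrf2flox/flox members at 248 CPM in the Tbx20 cells and 26.1 CPM in the others.

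Immediate early and heat shock genes, which also respond to the dissociation of tissue, moved with these comparisons. Of 28 tested, 21 were higher and none lower in Nrf2Cdh5tKO than in Nrf2flox/flox members of the atherosclerotic libraries, with a median log2 ratio of 1.66 beside 0.18 in the other fibroblasts. This set 7 cells against 4, and over all 3204 genes 5.43% were higher and 3.78% lower. In the normocholesterolemic libraries 7 were higher and 1 lower, with a median of 0.57 beside -0.21, where 12% of all genes were higher and 4.96% lower. Between diets none was higher and 10 lower in Nrf2flox/flox (median -0.72 beside -0.37), and 7 were higher and 1 lower in Nrf2Cdh5tKO (0.31 beside -0.05). Over all genes 10.1% were higher and 5.84% lower in Nrf2flox/flox, and 6.87% and 4.96% in Nrf2Cdh5tKO. The 30 genes of the list together reached 24008 CPM in the members of the first library, 29435 in the second, 18235 in the third and 41544 in the fourth, led by Fos in the Nrf2flox/flox and Junb in the Nrf2Cdh5tKO libraries. Their part in the differences between diets and genotypes was not tested. The comparisons share libraries with one another, and with a single library per group none of these differences can be set against a spread between mice.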

How the data were processed

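Aortic arch cells sorted as DAPI-negative were profiled with 10x 3′ single-cell RNA sequencing, 1 library per group. The deposited values are counts, whole UMIs per gene and barcode, which the authors made with Cell Ranger 6.1.2 on mm10 without normalization. Libraries held 8512, 3460, 1160 and 2467 barcodes. After the study's methods, barcodes were dropped below 200 or above 6000 genes, or above 15% mitochondrial UMIs. The members and the gene lists were chosen with earlier results of these data known. For each set and library the UMIs of its cells were added up and expressed per 1000000 (CPM). Ratios were log2 ratios with exact binomial 95% intervals. Before the ratio an average of 0.5 UMI per side was added, divided between the sides in proportion to their total UMIs. Levels had exact Poisson and shares exact Clopper-Pearson intervals. These calculations were tested on simulated sums with Poisson counts and no spread between cells. That test does not cover genes whose UMIs gather in a few cells.

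Genes were named by size. The highest and lowest ratios were taken, up to 15 higher and 10 lower for all libraries, up to 20 and 10 for the normocholesterolemic Nrf2flox/flox library, and up to 6 each way shared by both pairs for diet and genotype. The genes of the rule, Col8a1, Hmcn2, Nfe2l2 and Cdh5 were also named. From these the text gives those with most UMIs. Scrublet (scanpy 1.11.5) marked 306 cells (2.16%) as doublets, none a member, and removed none. Libraries shared 32 barcodes, none between members. Intervals came from scipy 1.17.1, components and neighbours from scikit-learn 1.9.0, tables from pandas 2.3.3 and numpy 2.4.6, and plots from matplotlib 3.10.9, under Python 3.11.15. Alternatives were other limits, thinning, other level filters, other reference cells and other neighbour numbers. The comparison under the same limits in a single library and the division by Tbx20 were added after the data were seen. No column of other samples was present. A further part of the treatment of the atherosclerotic mice is not reported here.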

Additional observations from a re-analysis of the deposited data

Results flagged for a closer look

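Some genes of the members went in opposite directions in the matching pairs of libraries, and these differences were not tested. Between diets this was so for 23 genes. The log2 ratio of atherosclerotic over normocholesterolemic members was 2.46 in Nrf2flox/flox and -3.71 in Nrf2Cdh5tKO for Col8a1, -2.48 and 3.54 for Cox4i2, and -2.76 and 3.98 for Clu. Between genotypes it was so for 26 genes. The log2 ratio of Nrf2Cdh5tKO over Nrf2flox/flox members was -5.62 in the normocholesterolemic and 1.55 in the atherosclerotic libraries for Clu, and 2.39 and -1.68 for Wisp2. In every case at least 1 side rested on 4 to 7 cells. Of the Clu UMIs of the atherosclerotic Nrf2Cdh5tKO members, 19 lay in 1 cell and 2 in another. All 6 Clu UMIs of the atherosclerotic Nrf2flox/flox members lay in 1 cell. The atherosclerotic Clu levels, and the direction between them, thus rested on 1 cell of each library. Col8a1 lay at 5, 0, 0 and 1 UMIs in the 4 atherosclerotic Nrf2flox/flox members. Within the normocholesterolemic Nrf2flox/flox members Clu was at 1178 CPM in the 42 cells with 3 or more Tbx20 UMIs and 67.1 CPM in the other 23, and Cox4i2 at 325 and 26.1 CPM, and the members of the other libraries had no such Tbx20 cells.

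Outside the fibroblast limits, 92 kept cells of the normocholesterolemic Nrf2flox/flox library and 22 of the normocholesterolemic Nrf2Cdh5tKO library had 3 or more Tbx20 UMIs, beside 0 and 3 in the atherosclerotic libraries. Only 3 leukocytes, all of the first library, reached that count.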

How the results depend on the processing

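With 138 values computed under alternatives for 20 results, 104 stayed near the main value and 34 moved. Near meant within the counting interval for a share of cells or neighbours, and within 1.5 times for a count of genes. For a log2 ratio of Col8a1 or Hmcn2, also that of 1 library, it meant within 1 SD over libraries, which is wide. The share of members in the normocholesterolemic Nrf2flox/flox library was 2.47% with a Cilp and Meox1 sum of 2 or more and 1.40% with 5 or more. Without the limits on Pi16, Dact2, Tfap2b and Mab21l2 the shares were 8.38%, 26.4%, 5.39% and 4.82%, and thinning to 5000 UMIs gave 1.64% in the normocholesterolemic Nrf2Cdh5tKO library. Genes at least 2-fold higher and lower in members of every library, 21 and 68, were 11 and 103 after thinning, 9 and 26 against fibroblasts under the same limits, 6 and 26 at a mean of 50 CPM, and 319 lower at 2 CPM. Leaving out each library in turn, which loosens the rule, gave 37 to 92 higher and 95 to 142 lower genes.

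The median log2 ratio over libraries of Col8a1 was 0.71 (SD 1.29, n = 4), -0.06 to 1.47 with each library left out (-0.06 without either the normocholesterolemic Nrf2Cdh5tKO or the atherosclerotic Nrf2flox/flox library) and 2.25 against fibroblasts under the same limits. That of Hmcn2 was 0.92 (SD 1.30, n = 4), 0.22 to 1.61 with each library left out, 1.81 with a sum of 5 or more and 1.90 against fibroblasts under the same limits. In the normocholesterolemic Nrf2flox/flox library, Col8a1 was at -0.06, 1.31 after thinning and 1.75 against fibroblasts under the same limits, and Hmcn2 at -1.04, 0.31 and 0.77. The cause of these moves was not tested. Genes differing between diets or genotypes were 194, 150, 179 and 152 at a mean of 200 CPM, where fewer genes were compared, and 178 between atherosclerotic genotypes with a sum of 5 or more. Without the Tbx20 cells, and so with wider intervals, 24 genes were higher and 10 lower than under the same limits. Members were 38.6% of 50 neighbours in the first library and 0% after thinning in the atherosclerotic Nrf2flox/flox library.

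With 4, 5 and 7 members in 3 libraries, 1 UMI stood for 20.2, 15.8 and 17.8 CPM. No paired analysis was possible because each group has 1 library and the result comes from no test.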
